A study of Mus musculus with 8 samples.

Results

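Fcer1g encodes the common gamma chain of Fc receptors, a short adaptor that natural killer (NK) cells, mast cells and myeloid cells use to pass signals from several surface receptors into the cell through an ITAM, the tyrosine motif that it shares with the CD3 chains. Conventional αβ T cells carry little of it, and its appearance in CD8+ T cells is known from cells that acquire NK receptors. The gene lies at chr1:171229572-171234365 on the minus strand of GRCm38 (mm10) and codes for protein. A population of OT-I T cells with Fcer1g transcripts was described here in tumours, with its markers, its size in each library, its expression programme and its guides.

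Members were chosen by measured values. A barcode had to carry exactly 1 called guide, at most 10% of its gene UMIs (unique molecular identifiers, each standing for 1 captured transcript) from mitochondrial genes, at least 2 UMIs of Fcer1g, under 3 of Gzmc and 0 of the macrophage genes Lyz2, C1qa, C1qb and Csf1r. The rule found 825 members among 23337 single-guide cells that met the mitochondrial limit. They were compared with 20891 cells of the same libraries that held 0 UMIs of Fcer1g and met the other limits. Cells with 1 UMI of Fcer1g, 616 in all, belonged to neither class. Levels of Fcer1g, Gzmc, the 4 macrophage genes and mitochondrial genes are therefore descriptions and were not tested.

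OT-I T cells are CD8+ T cells with a transgenic receptor against ovalbumin. Cas9 knock-in OT-I cells were transduced with a lentiviral CRISPR library against metabolic genes, whose vector carries CD90.1, and were injected into Cas9-expressing mice with orthotopic KPC_OVA tumours, pancreatic ductal adenocarcinomas that express ovalbumin. Mice of both arms had received library-carrying cells, and were given anti-PD-1 or a control IgG. CD90.1+ OT-I cells were sorted from the primary tumour 7 days after transfer and read out by CROP-seq, which captures transcripts and guides of single cells, in 3 anti-PD-1 libraries and 1 IgG library. The labels do not say how many mice each library pools, so libraries and not mice are the units of the tests.

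The libraries held 142945121 to 155974184 gene UMIs and differed in depth and in the level of some genes. Anti-PD-1 replicates 1 and 2 had medians of 16600 and 16114 UMIs per comparison cell, anti-PD-1 replicate 3 had 11702 and IgG 6212. The alpha chain constant gene Trac was at 1926 and 1772 CPM (UMIs of the gene per 1e6 gene UMIs) in comparison cells of replicates 1 and 2 but at 805 in replicate 3 and 701 in IgG. The methods of the study mention 2 batches, and the labels do not say which libraries belong to which. Between any pair of libraries 30 to 93 barcodes were shared, none of them a member in both.

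Members were rare in 2 libraries and common in the others. Anti-PD-1 replicate 1 held 17 members, 0.666% of its single-guide cells (exact Clopper-Pearson 95% interval 0.389% to 1.06%). Replicate 2 held 13, or 0.497% (0.265% to 0.848%). Replicate 3 held 351, or 5.38% (4.84% to 5.95%), and IgG held 444, or 3.81% (3.47% to 4.18%). The intervals cover counting error only. The mean of the anti-PD-1 libraries was 2.18% ± 2.77 (SD, n = 3), 1.64 percentage points below IgG, a difference smaller than the spread between the anti-PD-1 libraries (two-sided exact permutation test over libraries, p = 1, where 0.25 is the smallest p that 4 libraries allow). The highest share and the 2 lowest were thus all from anti-PD-1-treated mice. Since the labels assign no library to a batch, the difference could not be computed within one, and treatment and batch cannot be told apart.

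The part of depth in these shares was not tested beyond thinning. After each cell was thinned to 5000 gene UMIs, with shallower cells left out, members made up 0.399%, 0.156% and 3.94% of the 3 anti-PD-1 libraries, by replicate number, and 3.13% of IgG. Thinning to 5000 left out 45, 50, 357 and 3692 cells in that order. At 3000 gene UMIs the shares were 0.394%, 0.0384%, 2.81% and 2.32%, with 16, 14, 128 and 737 cells left out.

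**Figure D1:**
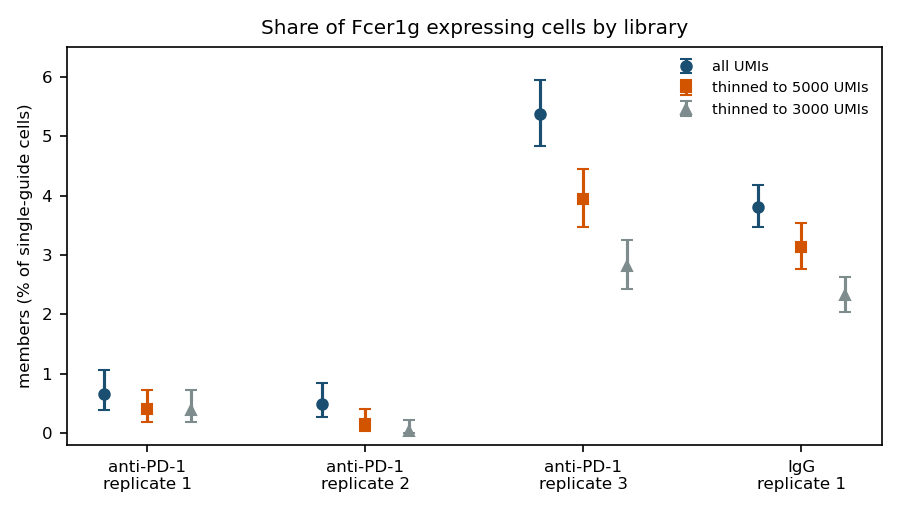
Members as a percentage of single-guide cells (y axis) in each of the 4 libraries (x axis), with all UMIs and after thinning each cell to 5000 or 3000 UMIs; bars are exact 95% intervals, which cover counting error only. With all UMIs the shares are 0.666% and 0.497% in anti-PD-1 replicates 1 and 2, 5.38% in replicate 3 and 3.81% in IgG.

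The median member held 5, 5 and 6 UMIs of Fcer1g under anti-PD-1 and 3 in the shallower IgG library, and the highest held 40. As CPM of the single cell, the median over members was 329, 249, 474 and 553. The median depth of members was 18315, 23137, 11931 and 6450 UMIs, against 16600, 16114, 11702 and 6212 UMIs in comparison cells. Members of replicate 2 were thus clearly deeper, with a median of 4016 detected genes against 3475. Their mitochondrial shares had medians of 3.0%, 2.48%, 1.41% and 1.87%, against 3.18%, 2.20%, 1.39% and 1.92% in comparison cells.

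The members carried the transcripts of CD8+ T cells. Cd3e, a signalling chain of the T cell receptor complex, had a UMI in all 17 and 13 members of anti-PD-1 replicates 1 and 2, in 350 of 351 in replicate 3 and in 434 of 444 in IgG. Its summed level in members was 782, 727, 970 and 779 CPM in the 4 libraries, against 749, 738, 907 and 727 CPM in comparison cells, and the groups overlapped. Cd8a, a chain of the CD8 coreceptor, lay at 905, 586, 873 and 883 CPM in members and at 643, 680, 922 and 877 CPM in comparison cells. The 5 genes of the γδ T cell list summed to 217, 175, 171 and 152 CPM in members and 154, 156, 137 and 108 CPM in comparison cells, higher in members of all 4 libraries. All 3 that could be tested were called higher by the edgeR test described below, which called 5.26% of all genes higher in members and 5.03% lower. The log2 fold changes were, for Tcrg-C2, 0.84 ± 0.17, for Tcrg-C4, 0.83 ± 0.22, and for Trdc, 0.33 ± 0.07. Trdc, the constant gene of the δ chain, made up most of the sum, at 178, 161, 133 and 124 CPM against 144, 145, 114 and 92.2 CPM. Tcrg-C1 reached at most 1.56 CPM in members. The paper's gating of OT-I cells required CD8 and both chains of the transgenic receptor, and its donors were bred from Rag2/OT-I mice. The part of γδ T cells in the results below was not tested.

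The NK name given to such cells was not borne out by the genes that define NK cells. Ncr1 (NKp46) and Klrb1c (NK1.1) had 0 UMIs in members of all 4 libraries, and Itga2 (CD49b), Klra4, Klra7, Klra8 and Klra1 stayed at or below 9.70 CPM. The 8 genes of that marker list summed to 13.7 to 21.5 CPM in members and 14.2 to 18.7 CPM in comparison cells. None of its 6 tested genes was called, which is near the 5.26% and 5.03% of all genes and is not a result about the members. With Ncr1 and Klrb1c at 0, the cells are named by their leading gene, as Fcer1g+ OT-I cells.

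Genes of other cell types were then summed over each list. Over the 12 other macrophage or monocyte genes, members summed to 38.8 to 58.3 CPM and comparison cells to 63.3 to 71.0 CPM, nearly all of it Ctss, a cathepsin gene, which was called lower in members (-0.52 ± 0.09, adjusted p = 4.19e-05). Adgre1, Mrc1 and Trem2 had no UMI in members of any library. Neutrophil genes summed to at most 3.23 CPM, mast cell or basophil genes to at most 1.56 CPM and platelet genes to 0 CPM in members. Within the mast cell or basophil list, the receptor chains Fcer1a and Ms4a2 that pair with the gamma chain were at 0 in both classes. Dendritic cell genes, mostly of MHC class II, summed to 3.23, 10.3, 29.1 and 59.7 CPM in members and 15.9, 21.2, 32.5 and 36.6 CPM in comparison cells. Fibroblast or endothelial genes summed to 6.86 to 12.9 CPM in members, acinar genes to 3.23 to 9.62 CPM, CD4 T cell genes to 0 to 1.87 CPM and B or plasma cell genes to 20.6 to 78.7 CPM. Epithelial keratins were lower in members, with 3 of 4 tested genes called lower, beside 5.03% of all genes. Krt19 was at 0, 0, 0.614 and 0 CPM in members and at 0.368, 3.65, 0.635 and 8.70 CPM in comparison cells. The part of the other cell types in the results below was not tested beyond a repeat in cells with under 3 UMIs over all those lists, which called 531 genes higher and 458 lower.

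Counts were summed over members and over comparison cells in each library, and the 8 sums were compared with edgeR's quasi-likelihood test with the library as a block. Adjusted p-values are Benjamini-Hochberg values of that test over all genes, a gene is called at 0.05 or below, and log2 fold changes carry a standard error. This error comes from the fit, which shares information between genes, and is not the spread of the library ratios. For Klra5 the ratios of members to comparison cells ranged from 3.38 to 19.4, while the error was 0.14 on the log2 scale. Apart from the genes of the rule, 11704 genes were tested. Of these, 616 (5.26%) were higher in members and 589 (5.03%) lower, and 117 of the former and 74 of the latter differed by at least 2-fold. In all 4 libraries the difference had the called sign for 379 of the higher and 499 of the lower genes. DESeq2 called 203 higher and 119 lower, each of them among the edgeR calls in the same direction. The counts fell to 210 and 190 without anti-PD-1 replicate 3, to 240 and 167 without IgG and to 40 and 25 without the library as a block. With anti-PD-1 replicate 3 and IgG alone, a choice made after seeing the data, 803 genes were higher and 795 lower. All 15 genes named below as the largest rises and all 10 falls stayed called there.

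**Figure D2:**
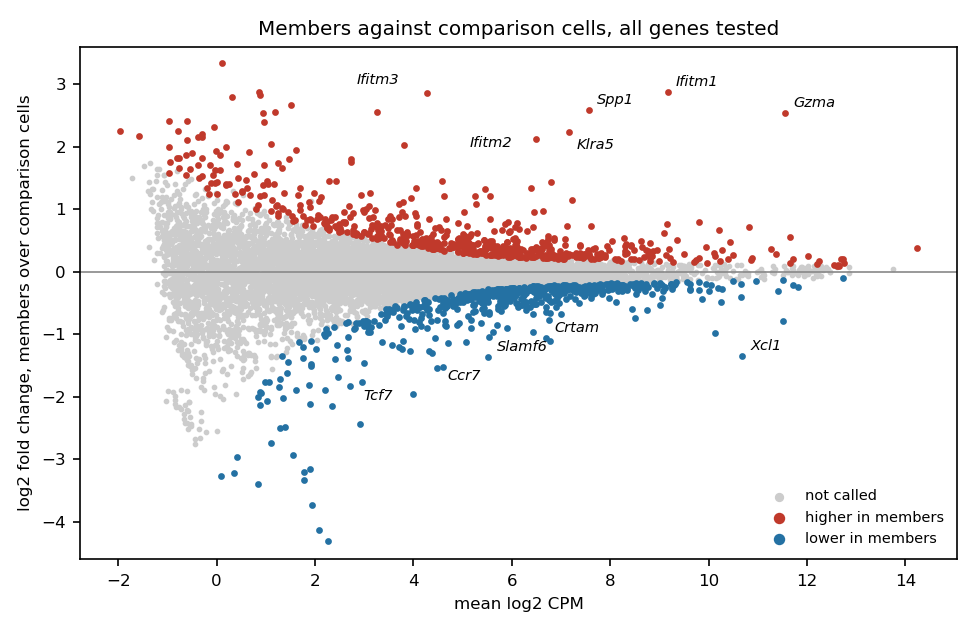
Log2 fold change of members over comparison cells (y axis) against mean log2 CPM (x axis) for the genes tested, without the genes of the rule; red and blue points passed an adjusted p of 0.05, and 5 genes lie outside the axis. Ifitm1 and Gzma combine a high level with log2 fold changes of 2.87 and 2.54, and Xcl1 has one of -1.35.

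Ifitm1, an interferon-induced membrane protein that blocks virus entry, had the largest rise under the naming rule. Its level was 1809.9, 799, 1342 and 1109 CPM in members and 119.6, 126, 267 and 174 CPM in comparison cells. Every member sum lay above every comparison sum. The log2 fold change was 2.87 ± 0.10 (adjusted p = 1.18e-34). A UMI of Ifitm1 was present in 64.7%, 76.9%, 65.2% and 54.3% of members and in 21.8%, 20.1%, 28.5% and 17.2% of comparison cells. It was one of the genes by which the population had been labelled in earlier work on these data, as was Gzma, so neither is independent evidence of the label.

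Gzma, a tryptase of cytotoxic granules and a hallmark of NK cells and innate-like T cells, was at 6545, 5417, 6547 and 3403 CPM in members and 741, 662, 1525 and 905 CPM in comparison cells. Again the classes did not overlap, and the log2 fold change was 2.54 ± 0.08 (adjusted p = 1.24e-35). Both markers were detected together in 64.7%, 61.5%, 57.0% and 39.4% of members, against 13.9%, 13.0%, 20.9% and 9.28% of comparison cells. Neither was detected in 11.8%, 7.69%, 7.98% and 19.6% of members. A gene seen in few of the shallow IgG cells may be present without being captured.

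The neighbours Ifitm2 and Ifitm3 moved with Ifitm1. Ifitm1 (chr7:140967221-140969825), Ifitm2 (chr7:140954837-140955987) and Ifitm3 (chr7:141009586-141010770) lie side by side on chromosome 7 of GRCm38. Ifitm3 was at 178, 113, 89.5 and 72.2 CPM in members and 6.95, 9.19, 15.3 and 11.9 CPM in comparison cells, a log2 fold change of 2.87 ± 0.13 (adjusted p = 4.04e-27). Ifitm2 was at 281, 206, 229.9 and 234 CPM against 36.7, 35.8, 62.8 and 56.9 CPM, a log2 fold change of 2.13 ± 0.08 (adjusted p = 3.29e-32). Of 17 tested genes of the Ifitm and interferon list, 6 were higher and 3 lower, beside 5.26% and 5.03% of all genes, with a median log2 fold change of 0.08 against -0.01 over all genes. Besides the Ifitm genes (Ifitm10 was the fourth, at 0.59 ± 0.16), the higher ones were Ly6c2 and the exonuclease gene Isg20. Ly6c2 encodes the Ly-6C antigen of memory and inflammatory cells and stood at 109.9, 144, 374 and 225 CPM against 70.7, 78.5, 139 and 119 CPM. Lower were the interferon-stimulated Ifit3 and Ifi27l2a and the Ly-6A/E antigen Ly6a. Isg15, Ifit1 and Irf7 were not called, with log2 fold changes from -0.43 to -0.12.

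Of 28 listed NK receptors and adaptors, 23 were tested, of which 11 were higher and 1 lower, against 5.26% and 5.03% of all genes tested. Klra5, a Ly49 receptor gene, had the largest rise of the list under the naming rule. It was at 352, 315, 352 and 375 CPM in members and at 18.2, 21.3, 102 and 111 CPM in comparison cells. Members of the 4 libraries were thus alike, while comparison cells of replicate 3 and IgG stood well above those of replicates 1 and 2. Its log2 fold change was 2.24 ± 0.14 (adjusted p = 3.92e-20), and 58.8%, 46.2%, 48.7% and 47.1% of members held a UMI. Without IgG the log2 fold change was 3.01, and without anti-PD-1 replicate 3 it was 2.99.

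Cd244a, the SLAM-family receptor 2B4, was at 61.4, 51.4, 62.9 and 61.9 CPM in members and 12.9, 11.5, 28.3 and 20.3 CPM in comparison cells (log2 fold change 1.46 ± 0.11, adjusted p = 1.31e-17). Klre1, an NK receptor of the lectin family, was at 93.7, 65.1, 182 and 158 CPM against 42.1, 43.3, 88.5 and 91.1 CPM (0.96 ± 0.07, adjusted p = 4.05e-17). CD94, encoded by Klrd1, was high in both classes, at 1474, 939, 1247 and 1023 CPM against 729.7, 707, 1131 and 943 CPM (0.40 ± 0.07, adjusted p = 4.78e-06). The NKG2D gene Klrk1 and its adaptor Hcst (DAP10) rose by 0.29 ± 0.07 and 0.44 ± 0.06, and Klrc2, Klra3, Klrg1 and Slamf7 were the other calls. Cd160, Cd226 and Klrc1 were not called. Crtam, a nectin-like receptor that binds CADM1, was the 1 lower gene, at 80.8, 24.0, 53.8 and 55.9 CPM against 114, 134, 107 and 125 CPM (-1.06 ± 0.09, adjusted p = 9.5e-15).

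Tyrobp (DAP12), another ITAM adaptor of NK cells, had the largest log2 fold change of the list, 2.88 ± 0.28 (adjusted p = 1.32e-12), at a very low level. It was at 9.70, 0, 7.78 and 19.7 CPM in members and 0.455, 0.657, 1.81 and 1.77 CPM in comparison cells, and only 5.88%, 0%, 6.27% and 6.53% of members held a UMI. The receptors that pair with the gamma chain were nearly absent. Of 14 listed, 13 were in the files and 3 could be tested, of which 1 was called higher, beside 5.26% of all genes. Il3ra, the interleukin 3 receptor alpha chain, was that gene, at 19.4, 13.7, 26.8 and 23.4 CPM against 12.7, 11.8, 18.4 and 19.1 CPM (0.47 ± 0.13, adjusted p = 0.00867). Whether the alpha chain itself pairs with the gamma chain was not examined here. Fcgr3, which encodes CD16, was at 3.23, 3.43, 1.02 and 1.25 CPM in members and at most 0.527 CPM in comparison cells (1.64 ± 0.58, adjusted p = 0.0568) and was not called. Members of the Klra, Ifitm and granzyme families have near-identical copies, among which reads can be split, so values of single copies are uncertain.

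**Figure D3:**
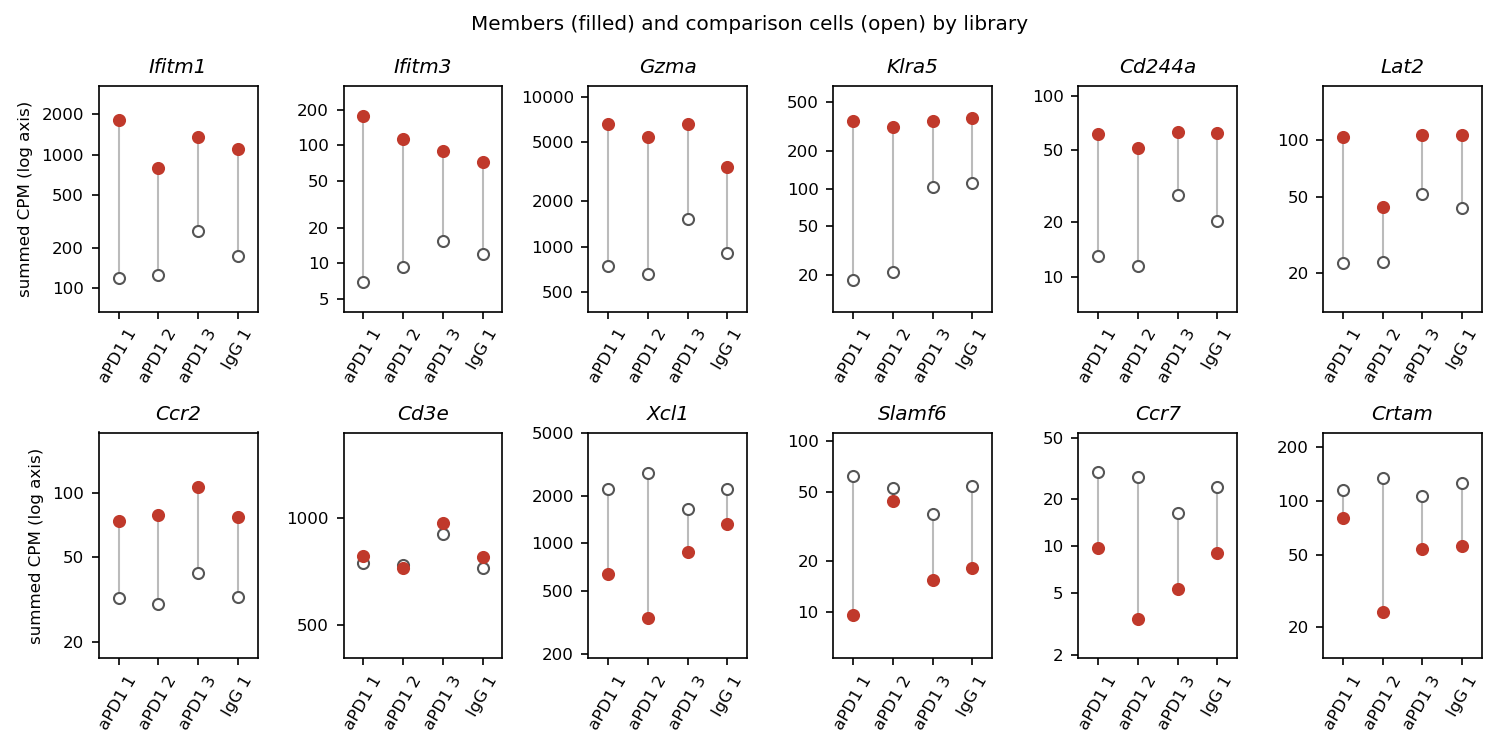
Summed level in CPM on a log axis (y) of 12 genes in each library (x; aPD1, anti-PD-1), with members as filled and comparison cells as open points joined within a library. Ifitm1, Ifitm3, Gzma, Klra5, Cd244a, Lat2 and Ccr2 are higher in members of all 4 libraries, Xcl1, Slamf6, Ccr7 and Crtam lower in all 4, and the 2 classes lie close together for Cd3e.

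Of 18 tested ITAM signalling genes, 4 were higher and 2 lower, beside 5.26% and 5.03% of all genes. Lat2 (NTAL), a LAT-like adaptor best known from mast and B cells, was at 103, 44.6, 106 and 106 CPM in members and 22.7, 22.9, 52.3 and 43.9 CPM in comparison cells (1.22 ± 0.09, adjusted p = 3.57e-18). Lyn, a Src-family kinase, was at 6.46, 3.43, 10.4 and 12.8 CPM against 2.29, 2.67, 5.52 and 4.59 CPM (1.19 ± 0.21, adjusted p = 1.72e-05). The phosphatase genes Inpp5d (SHIP1) and Ptpn6 (SHP-1) also rose, while Lat and Sh2d1a (SAP) fell by 0.28 and 0.39 on the log2 scale. Zap70, Lck and Fyn were not called. In the list of T cell receptor complex genes, Cd3g rose by 0.35 ± 0.05, Cd5, Cd28, Cd6 and Trbc1 fell, and the other 7 of 12 were not called, that is 1 rise and 4 falls beside 5.26% and 5.03% of all genes. Cd5, a brake on receptor signalling whose level follows signal strength in thymocytes, was at 42.0, 75.4, 82.7 and 70.6 CPM against 108, 102, 123 and 120.1 CPM (-0.65 ± 0.08, adjusted p = 4.19e-09).

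Cytotoxic granule genes rose in part. Of 16 tested, 7 were higher and 2 lower, beside 5.26% and 5.03% of all genes. Gzmb was at 2615, 2664, 2591 and 1518 CPM in members and 1441, 1568, 1747 and 972 CPM in comparison cells (0.72 ± 0.04, adjusted p = 5.52e-21). Perforin (Prf1), at 375, 254, 853 and 522 CPM against 530, 525, 728 and 437 CPM, and Nkg7 were not called (log2 fold changes of -0.04 ± 0.08 and -0.05 ± 0.04). The death ligands Fasl and Tnfsf10 (TRAIL) rose by 0.49 ± 0.08 and 0.66 ± 0.08. Gzmf and Gzmd were called at 2.56 ± 0.25 and 2.54 ± 0.29 but rested on few cells. In replicate 1, for example, 84.0% of the UMIs of Gzmf in members came from 1 cell, and in replicate 3 the same held for 87.0% of those of Gzmd. They neighbour Gzmc, on which the rule set an upper limit.

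The remaining rises under the naming rule were AA467197, Gm36723, Ccr2, Myo10, Tmem273, Filip1 and Itga1. AA467197 was at 181, 219, 239.95 and 232 CPM in members and 39.4, 47.5, 111 and 88.3 CPM in comparison cells (1.44 ± 0.08, adjusted p = 2.71e-22). Gm36723, a long intergenic noncoding RNA at chr12:25303940-25471979 of GRCm38, was at 178, 109.7, 202 and 155 CPM against 39.0, 34.3, 92.6 and 62.8 CPM (1.34 ± 0.08, adjusted p = 6.84e-22). The chemokine receptor Ccr2 was at 74.3, 78.8, 107 and 77.5 CPM against 32.1, 30.3, 42.4 and 32.4 CPM (1.33 ± 0.08, adjusted p = 3.96e-21). Itga1, the alpha chain of a collagen-binding integrin of resident T cells, was at 54.9, 20.6, 101 and 77.2 CPM against 17.9, 15, 47.0 and 39.1 CPM (1.09 ± 0.09, adjusted p = 2.9e-16). The unconventional myosin gene Myo10, Tmem273 and Filip1 had log2 fold changes of 1.35 ± 0.12, 1.22 ± 0.10 and 1.21 ± 0.09.

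Of 28 tested adhesion, residency and migration genes, 13 rose and 5 fell, beside 5.26% and 5.03% of all genes. Anxa1 (annexin A1), a calcium-dependent phospholipid-binding protein, had the largest change, 2.03 ± 0.12 (adjusted p = 3.96e-21), at 32.3, 78.8, 54.1 and 36.2 CPM against 8.31, 9.85, 13.5 and 10.5 CPM. S100a4 was at 1652, 1622, 975 and 868 CPM against 904, 877, 675 and 469.5 CPM (0.80 ± 0.05). Itgae (CD103), an integrin chain of resident cells, rose by 0.85 ± 0.10 and Lgals3 by 0.62 ± 0.08. Cxcr4, Ccr8, Cd9, Cxcr3 and Itga4 were the falls. Cd69, Cd44, Cxcr6 and Cx3cr1 were not called, with log2 fold changes from -0.07 to 0.12.

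Of 13 tested precursor and memory genes, 5 fell, 2 rose and 6 were not called, with a median log2 fold change of -0.71 (5.03% of all genes fell and 5.26% rose). Tcf7 (TCF-1), the transcription factor of precursor and memory CD8+ T cells, was at 0, 6.86, 2.25 and 8.75 CPM against 14.5, 13.1, 14.3 and 26.1 CPM (-1.95 ± 0.21, adjusted p = 1e-10). Slamf6, a surface marker of precursors, was at 9.70, 44.6, 15.4 and 18.1 CPM against 62.2, 53.1, 37.6 and 54.9 CPM (-1.37 ± 0.13, adjusted p = 3.9e-13). Members of replicate 2 lay close to their comparison cells for Slamf6, and the other 3 libraries were lower by more than 2-fold. Ccr7, the lymph node homing receptor, was at 9.70, 3.43, 5.32 and 9.06 CPM against 29.9, 28.1, 16.4 and 24.1 CPM (-1.54 ± 0.18, adjusted p = 7.25e-10). Id3 and Klf2 were the other falls. The rises were the survival genes Il7r (0.74 ± 0.10), the interleukin 7 receptor, and Bcl2 (0.73 ± 0.07).

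Counted over single cells, as a description with no test, since Fcer1g is the gene of the rule, all single-guide cells with at least 2 UMIs of Fcer1g were taken, including those that the Gzmc and macrophage limits of the rule remove. Among cells with at least 2 UMIs of Tcf7, 0 of 157, 1 of 137, 2 of 244 and 10 of 465 held at least 2 UMIs of Fcer1g, that is 0%, 0.730%, 0.820% and 2.15%. Where the count was 0 of 157, a share of up to 1.91% is allowed. Among cells with no Tcf7 UMI the shares were 1.33%, 0.987%, 7.94% and 5.37%, at median depths of 16919, 16441, 12035 and 6247 UMIs against 15776, 13750, 11308 and 6908 UMIs. The shares lay close together in replicate 2. The share that free RNA gives was not measured in another cell type.

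Of 21 effector and exhaustion transcription factors tested, 4 rose (Nfil3, Runx3, Id2 and Bhlhe40) and 6 fell, beside 5.26% and 5.03% of all genes. Nfil3, a factor needed for NK development, was at 25.9, 24.0, 43.0 and 49.4 CPM against 28.1, 30.2, 32.7 and 31.6 CPM (0.48 ± 0.10, adjusted p = 0.000563). It was higher in members of replicate 3 and IgG, and lower in the 2 libraries with few members. Tox, which sustains exhausted T cells, was at 116, 78.8, 52.0 and 38.8 CPM against 186, 164, 91.2 and 65.6 CPM (-0.77 ± 0.08, adjusted p = 5.27e-11), lower in all 4. The antigen-response genes Nr4a1 and Nr4a3 and the factors Batf, Zbtb32 and Ikzf2 were the other falls. Tbx21 (T-bet), Eomes and Gata3 were not called, and Zbtb16 (PLZF), a factor of innate-like T cells, was too low to be tested. The related gene Tox2 was at 16.2, 24.0, 7.17 and 4.38 CPM against 29.3, 29.3, 19.7 and 12.7 CPM (-1.30 ± 0.19, adjusted p = 2.15e-07). Rora, a nuclear receptor of innate lymphoid cells and helper T cells, was lower (-1.53 ± 0.18, adjusted p = 1.52e-09).

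Of 11 inhibitory receptors tested, 3 rose and 1 fell, beside 5.26% and 5.03% of all genes, with a median log2 fold change of 0.16. Pdcd1, which encodes PD-1, was at 294, 219, 342 and 289 CPM against 273, 272, 345 and 283 CPM (0.01 ± 0.06, adjusted p = 0.965). Havcr2 (TIM-3), Lag3, Tigit and Ctla4 were not called. The ectonucleotidase gene Entpd1 (CD39) rose, at 77.6, 58.3, 112 and 89.1 CPM against 37.0, 35.2, 68.5 and 53.5 CPM (0.77 ± 0.08, adjusted p = 3.82e-12), as did Cd200r1 and Lilrb4a. Btla fell by 1.46 on the log2 scale.

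Secreted factors formed the list with the most falls, 10 of 20 tested, with 4 rises and a median log2 fold change of -0.48. Over all genes, 5.03% fell and 5.26% rose. Xcl1, the chemokine that attracts cross-presenting dendritic cells, was at 637, 336, 875 and 1333 CPM in members and 2193, 2796, 1649.5 and 2207 CPM in comparison cells, with no overlap (-1.35 ± 0.12, adjusted p = 1.05e-14). A UMI of Xcl1 was found in 52.9%, 84.6%, 57.0% and 63.3% of members, and 1 cell gave 78.7% and 71.4% of the members' UMIs in replicates 1 and 2. The chemokine genes Ccl3 and Ccl4 fell by 0.98 and 0.79 on the log2 scale. Ccl4 was at 1952, 1742, 2726 and 1767 CPM against 3617, 4176, 4081 and 2700.2 CPM. Ifng, the main effector cytokine, was at 259, 333, 267 and 349 CPM against 445, 638, 426 and 466 CPM (-0.62 ± 0.06, adjusted p = 1.34e-11). Tnf, Il2 and Il10 also fell, and Ccl5 rose by 0.26 ± 0.06.

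Spp1, which encodes the secreted phosphoprotein osteopontin, had the largest rise of that list. It was at 329.7, 30.9, 516 and 557 CPM in members and 81.2, 59.1, 68.1 and 74.1 CPM in comparison cells (2.58 ± 0.13, adjusted p = 1.2e-25). The rise was absent from replicate 2, where 3 of 13 members held a UMI. In replicate 3 and IgG, 36.8% and 34.0% of members held one, against 15.4% and 10.2% of comparison cells. The low-level growth factor genes Csf1 and Csf2 were the other rises.

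Among the remaining falls under the naming rule were Penk (proenkephalin), the membrane protein genes Gpm6b and Itm2a and the chromatin protein gene Hmgn1. Hmgn1 was at 67.9, 106, 48.5 and 41.2 CPM against 154, 149, 98.0 and 113 CPM (-1.11 ± 0.09, adjusted p = 8.01e-16). Penk rested on few cells, with 1 cell giving 60.5% to 100% of the members' UMIs in each library. Gpm6b and Itm2a had log2 fold changes of -1.12 ± 0.14 and -1.04 ± 0.11.

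None of 15 G1/S genes and none of 15 G2/M genes passed the test in either direction by edgeR, with median log2 fold changes of -0.13 and -0.14. A count of 0 in 15 genes is near the shares of all genes called, 5.26% and 5.03%. Mki67 was at 126, 154, 180.2 and 239 CPM in members and 195, 193, 212 and 233 CPM in comparison cells (-0.14 ± 0.07, adjusted p = 0.236). In the glycolysis and hypoxia list, 3 of 15 tested genes rose (Aldoc, Slc2a3 and Bnip3) and 4 fell (Ldha, Pgam1, Pkm and Gapdh), beside the same shares of all genes. Of 18 cytokine receptors tested 3 rose (Il7r, Il2rb and Ifngr1) and 3 fell (Il1rl1, Tnfrsf4 and Il21r), again beside 5.26% and 5.03%. Tnfrsf4 (OX40) was at 38.8, 30.9, 98.3 and 98.4 CPM against 133, 132, 141 and 156 CPM (-0.68 ± 0.09, adjusted p = 1.08e-08).

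**Figure D4:**
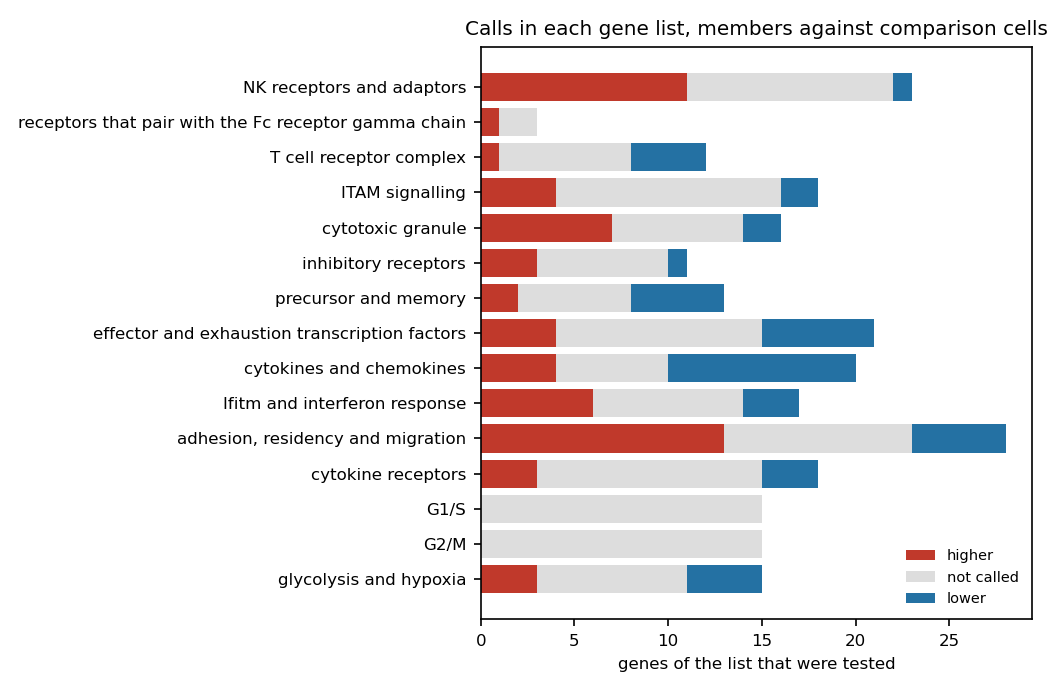
Number of tested genes (x axis) in each of 15 gene lists (y axis) that were higher in members, not called or lower. Secreted factors hold 10 falls of 20, adhesion and migration genes 13 rises of 28, and the lists G1/S and G2/M hold no call.

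Around the limits of the rule the levels changed by steps of unequal size. In IgG, cells with 1 UMI of Fcer1g, just outside, had Ifitm1 at 467 CPM and Gzma at 2178 CPM, and cells with 2 UMIs, just inside, had 723 and 2117 CPM. In replicate 3 the values were 422 and 2619.5 CPM with 1 UMI and 1267 and 5514 CPM with 2. Members with 10 or more UMIs had Ifitm1 at 1624 CPM (replicate 3) or 1809 CPM (IgG). In cells with at least 2 UMIs of Fcer1g, those with 2 UMIs of Gzmc had Gzma at 5497 and 4795 CPM and those with 3 had 12414 and 5614 CPM in replicate 3 and IgG, over 10 to 19 cells each. The Gzmc limit removed 11, 11, 128 and 132 cells, most of which held 4 or more UMIs of Gzmc. Those 117 and 122 cells of replicate 3 and IgG lay above the members, with Ifitm1 at 3205 and 3212 CPM, Gzma at 13448 and 8835 CPM and Tyrobp at 97.6 and 74.3 CPM. Without it, 1021 genes were called higher and 943 lower. These values describe the rule and carry no test.

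**Figure D5:**
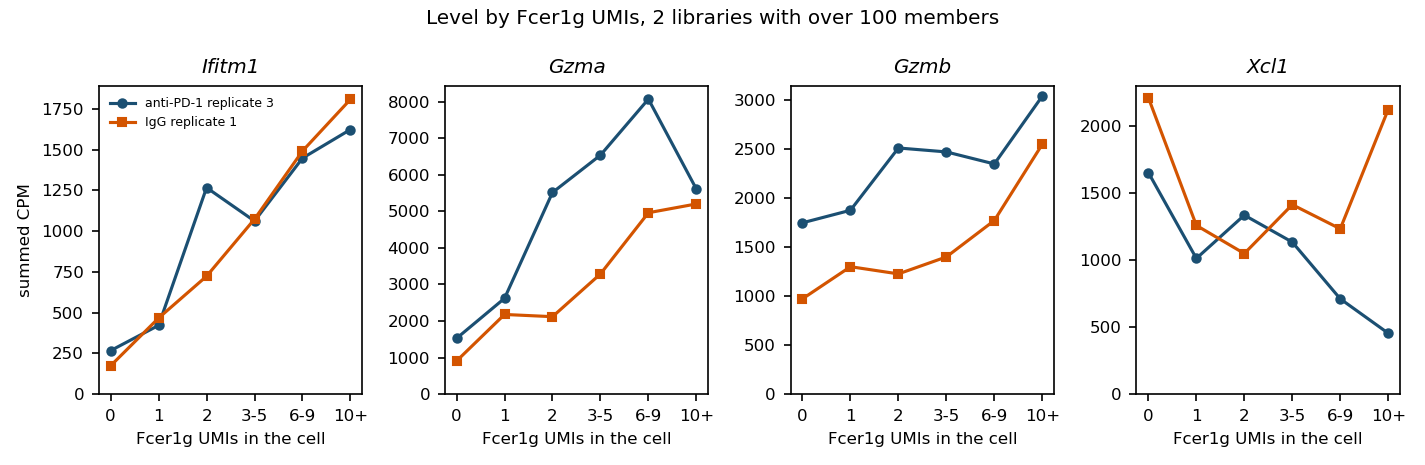
Summed CPM (y axis) of 4 genes in cells grouped by their Fcer1g UMIs (x axis) within the rule's other limits, in anti-PD-1 replicate 3 and IgG. Ifitm1 runs from 267 and 174 CPM at 0 UMIs to 1624 and 1809 CPM at 10 or more, and Xcl1 in IgG is at 2207 CPM at 0 UMIs, 1047 CPM at 2 and 2119.5 CPM at 10 or more, while in replicate 3 it ends at 453 CPM.

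Whether the members' programme differed between the anti-PD-1 libraries and the IgG library was asked by an interaction in the same model. With 1 IgG library, the fit assumes that it varies like the others, and treatment cannot be told apart from that library. Of 11704 genes, 5 were called (0.0427%), with 252 at an unadjusted p under 0.05, and DESeq2 called 0. For Gzma the ratio of members to comparison cells came to 8.83, 8.19 and 4.29 under anti-PD-1 (replicates 1 to 3) and 3.76 under IgG (interaction log2 -0.81 ± 0.10). For Klra5 the ratios were 19.4, 14.8, 3.45 and 3.38 (-1.20 ± 0.18). For Xcl1 they were 0.290, 0.120, 0.530 and 0.604 (1.04 ± 0.12). In each of these genes replicate 3 lay nearer to IgG than to the other anti-PD-1 libraries. Spp1 and Gzme, the latter seen in at most 6 members of a library, were the other calls. Within members, anti-PD-1 against IgG gave 0 calls of 9164 genes (0%), with 83 at an unadjusted p under 0.05, and DESeq2 also called 0. The edgeR fit called 82 without anti-PD-1 replicate 3 and 24 with no filter on low counts.

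Members carried 16, 13, 183 and 196 different guides in the 4 libraries, and the commonest guide was held by 2, 1, 6 and 8 of them. Nontargeting guides made up 29.4%, 15.4%, 12.3% and 12.2% of members and 12.5%, 14.4%, 11.2% and 11.1% of comparison cells. Of 84 targets (with nontargeting guides counted as one), 82 had at least 1 member.

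No target was called among members by edgeR (0 of 84, 0%), with 10 at an unadjusted p under 0.05. The smallest p belonged to Pik3cd, the catalytic delta subunit of PI3K, for which 1 guide was found in members or comparison cells. Its spacer is shown, since 1 guide carries that whole value; its position in the genome was not analysed here:

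Pik3cd_gRNA1: gttgtgtgttcaactaccgg

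This guide was held by 0, 0, 3 and 6 members and by 25, 27, 202 and 228 comparison cells in the 4 libraries. That is 0%, 0%, 1.46% and 2.56% members among those cells (edgeR log2 change -1.34 ± 0.40, adjusted p = 0.106). Of all single-guide cells, 0.666%, 0.497%, 5.38% and 3.81% were members. With 25 and 27 comparison cells, the values of 0% in anti-PD-1 replicates 1 and 2 cannot show a fall. Cept1, Slc25a11, Taar1, Setd1b, Kmt2c and Hsd3b6 followed, each at an edgeR adjusted p of 0.319 and with 4, 5, 17, 1, 19 and 12 members in all. The log2 change was positive for Taar1 (0.94), Kmt2c (0.85) and Hsd3b6 (1.06) and negative for the other 3.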

How the data were processed

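The authors mapped reads to mm10 with Cell Ranger 3.1.0 and deposited raw UMI counts per feature and barcode, and, as a table per library, guide calls by barcode made at automatic thresholds. The labels name Seurat and R 3.6.3 for later steps, whose output was not used. No source used here gives the annotation release. Of 8 samples, 4 are gene expression libraries and 4 their guide libraries, joined by channel. Treatment came from the labels, and replicates were numbered in accession order. Doublets were not called, and barcodes with more than 1 guide were left out of the comparisons. The members and lists were chosen with earlier results of these data known.

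Counts were summed per library and class (8 sums from 291697 to 74051004 UMIs) and tested with edgeR 4.0.16 (filterByExpr, TMM, quasi-likelihood, library as a block, Benjamini-Hochberg adjustment at 0.05). Both classes of a library come from the same mice and channel, which is the pairing. The treatment fits assume that the IgG library varies like the others. Targets with at least 20 cells were tested in the same way on cells per target. DESeq2 1.42.0 was an alternative, as were RLE factors, no filter, no block, other limits of the rule, depth or guides, and leaving out libraries; the fit on anti-PD-1 replicate 3 and IgG alone was chosen after seeing the data. Genes named were, among called genes with a mean log2 CPM above 4 and the same sign in 4 of 4 libraries, the 15 largest rises and 10 largest falls, with the called list members of largest change; other list members, mainly well-known ones, were chosen after their values were seen. Data were also simulated for members against comparison cells (11690 genes). There 94 of 100 genes changed by 1 log2 unit and 10 of 11490 unchanged genes were called. Of simulated targets, 7 of 8 raised by 2 log2 units and 2 of 76 unchanged ones were called. Those 8 were the gene targets with the most cells, and all simulated target counts varied by counting error alone. The median error was -0.54 log2 units for raised targets and -0.63 for unchanged ones. Changes of targets with fewer cells and smaller changes were not simulated, so the power for most targets is not known. Shares carry exact 95% Clopper-Pearson intervals, and a count of 0 allows 3 counts of the total. Intervals cover counting error only. Fits ran in R 4.3.3 and the rest in Python 3.11.15 (pandas 2.3.3, scipy 1.17.1). Gene positions are from GENCODE M21 for GRCm38, the build mm10, and are 1-based. The spacer is from the library table of the study. Single values of some list genes are not reported here.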

Additional observations from a re-analysis of the deposited data

Results flagged for a closer look

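For 5 genes the interaction term between the class of cells and treatment passed the test, with 1 IgG library, so that treatment cannot be told apart from that library. The interaction, IgG minus anti-PD-1 on the log2 scale, was -0.81 for Gzma, -1.20 for Klra5, 1.04 for Xcl1, 0.79 for Spp1 and 3.54 for Gzme. Without anti-PD-1 replicate 3 the values were -1.16, -2.32, 1.65, 1.67 and 1.85 in the same order, and without replicate 2 they were -0.69, -0.85, 0.55, 0.32 and 3.49, where Gzma alone among the 5 stayed called. DESeq2 called none of them.

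Cells that would meet the rule were also present among barcodes outside the comparisons, at shares above the limit that a count of 0 allows. With no guide call, 0.988%, 0.822% and 3.45% of barcodes of the 3 anti-PD-1 libraries and 3.21% of those of IgG met the other limits. With more than 1 guide, they were 0.941% of replicate 1, 8.76% of replicate 3 and 6.45% of IgG, and 0.929% of replicate 2, which does not exceed that limit. Barcodes with more than 1 guide were deeper, with medians of 22024, 21501, 20789.5 and 10594 UMIs in the 4 libraries. Among those without a guide call, 56 of 57, 51 of 51, 157 of 158 and 228 of 236 such barcodes held a UMI of Cd3e.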

How the results depend on the processing

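With 2 libraries of 17 and 13 members, the calls rest mainly on anti-PD-1 replicate 3 and IgG. Genes higher and lower in members numbered 616 and 589; 203 and 119 by DESeq2, 163 and 102 in cells of middle depth, 57 and 45 with nontargeting guides only, 31 and 37 for cells with exactly 1 UMI of Fcer1g and 1021 and 943 without the Gzmc limit. With no replicate block (here the library) the fit called 40 and 25; the paired sums share their library. Leaving out 1 library gave 210 to 699 genes higher and 167 to 680 lower: 210 and 190 without anti-PD-1 replicate 3, 240 and 167 without IgG. Fewer sums enter the fits with a library left out; for the others the cause was not tested. With exactly 1 UMI of Fcer1g the log2 fold changes were smaller, 0.98 for Ifitm1, 0.78 for Gzma and 1.004 for Klra5, and most of the other named genes also shrank. Gzma was at 1.45 in cells of middle depth, and with nontargeting guides only Ifitm1 was at 2.03, Ifitm3 at 2.13, Ifitm2 at 1.36 and Klra5 at 1.42. Klra5 was at 2.97 by DESeq2. Among the falls, middle depth gave -2.88 for Ccr7, -2.76 for Tox2 and -0.53 for Penk, and nontargeting guides -3.27 for Rora, -2.18 for Tox2 and -2.31 for Penk. AA467197 was at 2.16 without the Gzmc limit. RLE factors, no filter on low counts, Fcer1g of at least 3 UMIs, cells within 3 median absolute deviations of depth, under 3 UMIs of other cell types, and replicate 3 with IgG alone (chosen after seeing the data) stayed within 1.5 times. The 25 named genes, whose choice by sign and size largely fixes their direction, kept their call in 377 of 400 repeats over 16 alternatives. Of the 25, 10 lost their call with no replicate block, and 6 with exactly 1 UMI of Fcer1g. With nontargeting guides only, 5 lost it, all of them falls. DESeq2 and cells of middle depth lost 1 each. The interaction called 5 genes, 0 by DESeq2, and 2 to 12 with a library left out (2 without replicate 2, 12 without replicate 3). Treatment within members called 0, 24 with no filter, and 0 to 82 with a library left out (82 without replicate 3). Targets gave 0 calls under every alternative run. The share difference, -1.64 points, kept its sign, from -3.23 to -0.79 with a library left out.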
